A study of Arabidopsis thaliana with 12 samples.

Results

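How far the effect of losing one Arabidopsis thaliana co-chaperone depends on the presence of the other was described from all 12 libraries of the study, through the interaction of the djc31 and djc62 mutations. The 4 genotypes were the double mutant djc31 djc62, its single mutants djc31 (line SALK_034886) and djc62 (line SALK_050913), and the wild-type accession Col-0, with 3 libraries each. The labels give one insertion line per gene and no complemented line. RNA came from whole plants grown on soil to the stage of 4 leaves, with 16 h of light at 100 µmol photons per square metre and second and 21 °C, and 8 h of dark at 16 °C, and no stress treatment is named. Of 36917 loci in the table, 19975 were tested and 6236 were called in the interaction contrast.

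DJC31 and DJC62 belong to the J-domain proteins, the partners that stimulate the ATPase of HSP70 chaperones. Both also carry tetratricopeptide repeats of the kind that bind the carboxy-terminal end of HSP70 and HSP90. Chaperone machines of this type fold client proteins, and in plants their clients include hormone receptors, immune receptors and kinases. In genetics, 2 mutations are said to interact when the double mutant is not the sum of the single mutants. On the log2 scale that departure is the contrast double mutant minus djc31 minus djc62 plus Col-0, and it is 0 when the effects add up.

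Values are normalised read counts. Reads counted in genes ran between 13.6 M and 31.08 M per library, with a median of 25.8 M. Levels are given for single libraries in the order of their numbers or as mean ± SD (n = 3 per genotype). Contrasts and adjusted p-values come from limma on log2(value + 1) with Benjamini-Hochberg adjustment over all loci tested, and a locus is called at an adjusted p under 0.05. Whether the replicates are separate sowings or plants is not stated in the labels. The p-values therefore measure only the spread between the 3 libraries of a genotype, part of which may be technical.

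The mutated genes check the labels. DJC31 (AT5G12430, chromosome 5) had 39, 49.1 and 54.4 in the double mutant, 79.6, 135 and 130.2 in djc31, 805, 914 and 917 in djc62, and 784, 699.7 and 697 in Col-0. DJC62 (AT2G41520, chromosome 2) had 74.6, 93.8 and 58.6 in the double mutant, 311, 494 and 434 in djc31, 104, 194 and 186 in djc62, and 525, 587 and 436 in Col-0. Each gene was thus low in every library of its own mutant and of the double mutant, and the double mutant had less of each transcript than the matching single mutant, with a difference of -1.23 ± 0.19 SE for DJC31 (adjusted p = 0.000207) and -1.05 ± 0.25 SE for DJC62 (adjusted p = 0.00574) on the log2 scale. The interaction contrast was -1.51 ± 0.27 SE for DJC31 (adjusted p = 0.000484) and -0.72 ± 0.35 SE for DJC62, which was not called (adjusted p = 0.128). The insertion sites were not analysed here, and reads outside them may remain.

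The interaction was called at 6236 of 19975 loci (31.2%), with the contrast above 0 at 3158 (15.8%) and below 0 at 3078 (15.4%). The median size of the contrast among called loci was 1.09 on the log2 scale, and 3458 of them exceeded 1. Over all loci tested, the median contrast was -0.0032, and the 5th and 95th percentiles were -1.48 and 2.07. On the linear scale of the values, 6231 of the 6236 called loci had a contrast of the same sign.

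The same contrast can be read as a difference between backgrounds. Loss of DJC31 in the djc62 background (double mutant against djc62) changed 3942 loci (19.7%), and loss of DJC31 in the Col-0 background (djc31 against Col-0) changed 5489 (27.5%). These 2 comparisons share no library. At 1202 loci both called changes ran in opposite directions and at 353 in the same direction, which is 30.5% and 8.95% of the calls in the djc62 background. Across the 19975 loci the effects in both backgrounds had a Pearson r of -0.217 and a Spearman rho of -0.229, and 58.5% of loci had effects of opposite sign. For loss of DJC62, the djc31 background gave 6255 calls (31.3%) and the Col-0 background 5326 (26.7%), with 1344 opposite and 693 in the same direction, an r of -0.138 and a rho of -0.0973. By direction, the calls were higher in the first-named genotype at 9.38% and lower at 10.4% of loci for the double mutant against djc62, at 15.3% and 16.0% for the double mutant against djc31, at 13.8% and 15.5% for the double mutant against Col-0 (29.2% in all), at 13.3% and 14.2% for djc31 against Col-0, at 13.7% and 13.0% for djc62 against Col-0, and at 7.91% and 5.85% for djc62 against djc31 (13.8% in all). Loci are not independent of each other, and all share the 4 genotypes, so these correlations are descriptions. A displacement of Col-0 from all mutants enters the effects in the Col-0 background and not those in the other mutant's background. Loss here means the insertion mutation. Each mutated gene kept some reads, fewer in the double mutant than in its single mutant, so the remaining transcript differed between the backgrounds.

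**Figure D1:**
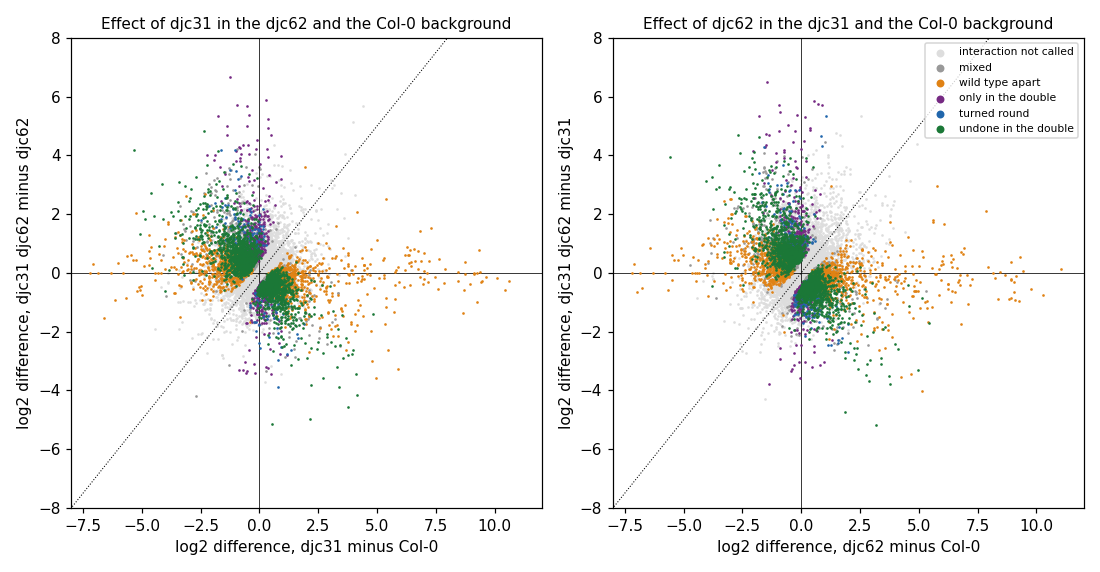
Each point is a tested locus, with the effect of one mutation in the other mutant's background on the y axis against its effect in the Col-0 background on the x axis, both as log2 differences. Colours give the shape of the locus and the dotted line marks equal effects. For djc31 (left) the called loci lie away from that line, 1202 of them with both effects called in opposite directions, and loci with the wild type apart spread along the x axis near a y of 0.

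The called loci were sorted by shape, from the pairwise calls of the same fit. A change was taken as undone where a single mutant differed from Col-0, the double mutant differed from that single mutant in the opposite direction, and the double mutant was not called against Col-0. This shape held 2130 loci, 34.2% of those called, with 577 where both single-mutant changes were undone, 1044 where only that of djc31 was, and 509 where only that of djc62 was. A change only in the double mutant, with neither single mutant called and the double called against all 3 other genotypes, was found at 672 loci (10.8%). At 1492 loci (23.9%) all 3 mutants differed from Col-0 in 1 direction, and at 864 of these no pair of mutants differed. At 223 loci (3.58%) the change was turned round, that is, the double mutant differed from Col-0 in the direction opposite to a single mutant. The other 1719 (27.6%) had mixed patterns. The counts depended on single libraries: without double-mutant replicate 1 or 2, 341 and 360 loci were only in the double mutant and 132 and 128 turned round, and without Col-0 replicate 1 or 2, 119 were turned round in each case. The sort uses the same values as the contrast, so the shapes carry no test of their own, and a double mutant that was not called against Col-0 is not thereby shown to equal it.

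**Figure D2:**
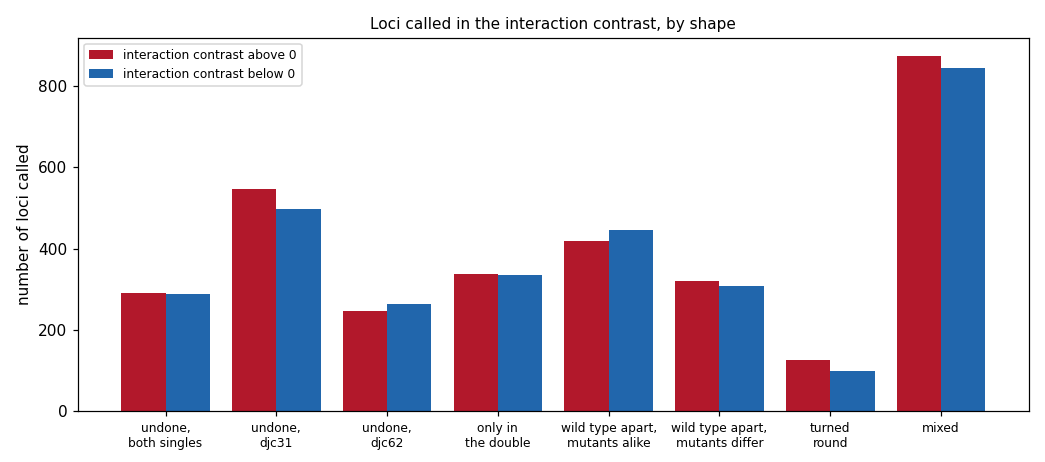
Bars give the number of called loci of each shape, split by whether the interaction contrast lay above (left bar) or below 0 (right bar). Both signs occur in similar numbers in every shape, from 419 above and 445 below 0 at loci with the wild type apart and the mutants alike to 125 above and 98 below 0 at loci that were turned round.

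Shapes differed in how far the genotypes lay apart. Where both single-mutant changes were undone, the median size of the log2 difference from Col-0 was 0.17 in the double mutant, against 0.94 in djc31 and 0.91 in djc62. At loci changed only in the double mutant it was 0.77 in the double, 0.18 in djc31 and 0.16 in djc62. Where the wild type stood apart and the mutants were alike, it was 0.97, 1.11 and 1.07. In that last shape a shift of Col-0 alone gives a contrast of the same size, so the contrast there measures Col-0 against the mutants and not a difference between backgrounds within the mutants.

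Among genes of sulfur deficiency and sulfate assimilation, 11 of 21 tested were changed in one or both single mutants with that change undone in the double mutant. Plants induce these genes when sulfate is short, and their enzymes reduce sulfate for cysteine, glutathione and glucosinolates. Of 22 genes listed 21 were tested, and 14 were called with the contrast above 0 and 1 below, with a median of 1.42, against 15.8% and 15.4% of all loci. None of the 15 called had the wild type apart, and 6 members were not called. LSU2, one of the small proteins named for their response to low sulfur, had 502, 482 and 434 in the double mutant, 95.6, 103 and 75.2 in djc31, 73.4, 65.3 and 71.6 in djc62, and 354, 421 and 499.7 in Col-0. All double-mutant and Col-0 libraries of LSU2 lay above all 6 single-mutant libraries. The share of all loci with the single mutants separated in this way was not counted, for LSU2 or the genes below. Naming genes by contrast or adjusted p favours such a separation. The contrast of LSU2 was 4.94 ± 0.25 SE (adjusted p = 2.59e-10), and the double mutant differed from Col-0 by 0.17 ± 0.18 SE.

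LSU1 had the highest contrast of all called loci with a mean of at least 100 in some genotype, at 9.52 ± 1.04 SE (adjusted p = 2.94e-06). It had 59, 69.9 and 32.6 in the double mutant, 6.64, 4.3 and 0 in djc31, 0, 3.39 and 4.62 in djc62, and 145, 91.6 and 201 in Col-0, so that it was next to absent in both single mutants and present in every other library, although all double-mutant libraries were below all Col-0 libraries. LSU3 averaged 55.9 ± 30.3 in the double mutant, 3.17 ± 0.935 in djc31, 11.3 ± 4.32 in djc62 and 78.4 ± 79.9 in Col-0, with a wide spread in Col-0. APR1, an adenosine 5'-phosphosulfate reductase at a control point of sulfate assimilation, had 3195, 3103 and 2525 in the double mutant, 846, 692 and 709 in djc31, 1306, 1367 and 1317 in djc62, and 2272, 2122 and 2785 in Col-0 (contrast 2.81 ± 0.18 SE, adjusted p = 3.43e-09). The lowest double-mutant library of APR1 was higher than every single-mutant library and within the Col-0 range. SDI2, a tetratricopeptide repeat protein induced by sulfur deficiency, had 331, 409 and 265 in the double mutant, 62.4, 45.1 and 80.3 in djc31, 93.2, 125 and 144 in djc62, and 314, 349 and 343 in Col-0 (contrast 3.90 ± 0.32 SE, adjusted p = 1.15e-07). The reductases APR2 and APR3 and the kinase APK1 were undone from djc31 only, with APR2 at 987 in the double mutant, 409 in djc31, 1069.5 in djc62 and 1117 in Col-0. The vacuolar sulfate exporter SULTR4;2 was undone from djc62 only, with 301 in the double mutant, 165 in djc31, 119 in djc62 and 223 in Col-0. The exception in sign was APS3, an ATP sulfurylase, with a contrast of -0.56 ± 0.21 SE (adjusted p = 0.0488). The transporters SULTR1;2, SULTR2;1 and SULTR4;1 were not called.

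**Figure D3:**
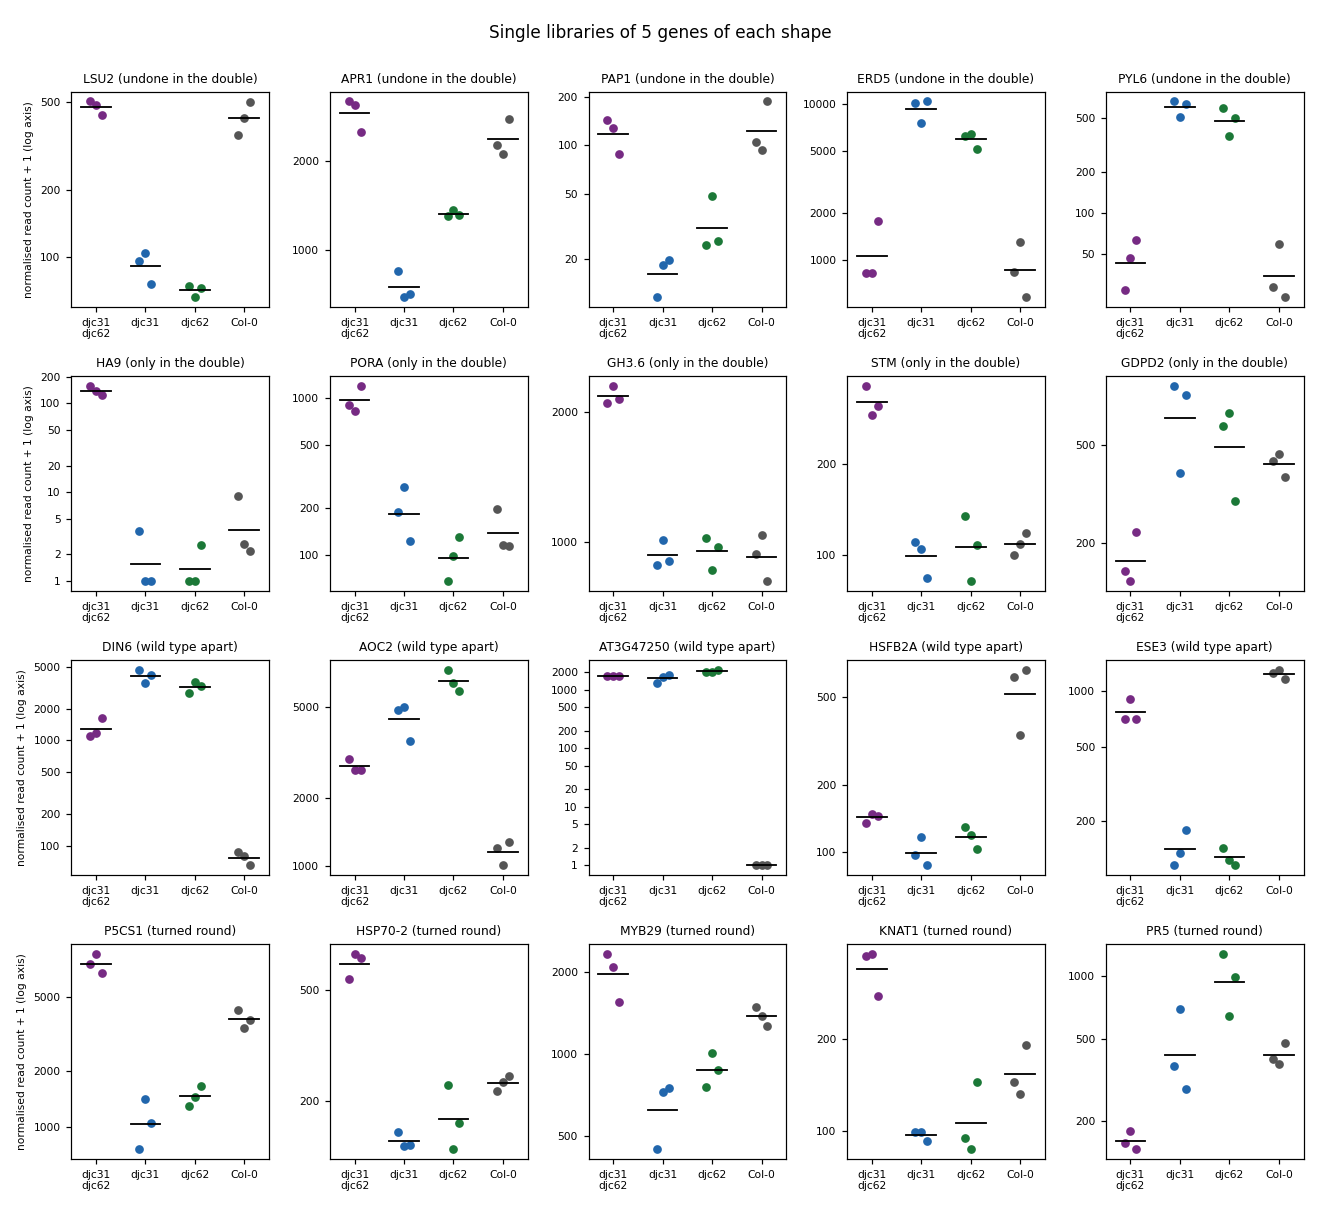
Points are single libraries and black lines the geometric means of the normalised read count + 1 on a log axis that differs between panels, for the double mutant, djc31, djc62 and Col-0, with 5 genes of each of 4 shapes in a row. In the top row LSU2, APR1 and PAP1 are low, and ERD5 and PYL6 high, in both single mutants only, and in the third row Col-0 lies outside the range of all mutant libraries.

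Among flavonoid and anthocyanin genes, undone changes were also the most common shape. Of 28 listed genes 25 were tested, and 15 were called above 0 and 1 below, against 15.8% and 15.4% of all loci. Their median contrast was 1.12, and 12 were undone. The mean was lowest in djc31 at 15 of the 16 called. PAP1, the MYB factor that switches on anthocyanin synthesis, had 143, 126 and 87.9 in the double mutant, 10.6, 17.2 and 18.6 in djc31, 23.3, 47.5 and 24.6 in djc62, and 104, 93.2 and 186 in Col-0. Its 6 single-mutant libraries were all below its 6 double-mutant and Col-0 libraries, and the contrast was 4.85 ± 0.51 SE (adjusted p = 1.68e-06). The bHLH factor TT8, a partner of PAP1, averaged 111 in the double mutant, 29.9 in djc31, 36.9 in djc62 and 110.3 in Col-0.

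Several enzymes of the pathway moved with these regulators in both single mutants. LDOX, which makes anthocyanidins, averaged 1749 ± 353 in the double mutant, 496 ± 253 in djc31, 594 ± 86.5 in djc62 and 1256 ± 144 in Col-0 (adjusted p of the contrast = 6.2e-06). The flavonoid 3'-hydroxylase TT7, the malonyltransferase 5MAT and the glucosyltransferases UGT79B1 and AT4G14090 were also undone from both, with contrasts of 2.89, 3.24, 2.68 and 2.61. TT19, a glutathione transferase needed to bring anthocyanins into the vacuole, had 975, 779.8 and 629 in the double mutant, 323, 245 and 334 in djc31, 366, 247 and 333 in djc62, and 589, 656 and 711 in Col-0. Enzymes undone from djc31 only included chalcone synthase (CHS), the entry enzyme. CHS averaged 6161 in the double mutant, 3472 in djc31, 4843 in djc62 and 5900.2 in Col-0, with a contrast of 1.12 ± 0.22 SE (adjusted p = 0.00083). DFR was the member that was turned round, at 2095 in the double mutant, 608 in djc31, 1011 in djc62 and 1244 in Col-0. Flavonol branch genes, among them FLS1, MYB12 and MYB111, were not called.

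Proline metabolism showed both signs. P5CS1, the enzyme that limits proline synthesis, had 7537, 8607 and 6779 in the double mutant, 761, 1411 and 1053 in djc31, 1298, 1459 and 1667 in djc62, and 4289, 3406 and 3776 in Col-0. ERD5, the mitochondrial proline oxidase that breaks proline down, had 826, 828 and 1778 in the double mutant, 10139.5, 7504 and 10355 in djc31, 6267, 6422 and 5159.8 in djc62, and 842, 1311 and 582 in Col-0. Synthesis and breakdown transcripts were thus opposite in the single mutants, with P5CS1 low and ERD5 high in all 6 libraries. The double mutant had more P5CS1 than any Col-0 library (log2 difference 0.998, adjusted p = 0.000348), while its ERD5 was not called against Col-0 (0.31 ± 0.27 SE, adjusted p = 0.427). The contrasts were 4.24 ± 0.24 SE and -5.89 ± 0.38 SE (adjusted p = 1.18e-09 and 5.44e-09).

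Both belong to the list of abscisic acid (ABA) synthesis, signalling and response, the hormone pathway of drought. It had 31 members, of which 29 were tested, and 16 were called above 0 and 1 (ERD5) below. The shares of all loci were 15.8% and 15.4%. The list's median was 0.96, and 6 members each were undone and wild type apart. HB7, an ABA-induced homeobox factor, had 629, 672 and 534 in the double mutant, 223, 176 and 167 in djc31, 278, 295 and 306 in djc62, and 447, 415 and 543 in Col-0 (contrast 2.36 ± 0.22 SE, adjusted p = 3.71e-07). The bZIP factor ABF3 averaged 1621 in the double mutant, 913 in djc31, 1093 in djc62 and 2158 in Col-0. Clade A phosphatases, which hold ABA signalling down, were called above 0, with contrasts of 0.60 for ABI1, 1.65 for ABI2, 1.64 for HAB1, 0.71 for HAB2, 1.87 for AHG3 and 1.41 for HAI1, while HAI2 was not called. The ABA receptor gene PYL6, outside the list, ran the other way, with 26, 46.1 and 62.8 in the double mutant, 657, 503 and 634 in djc31, 589, 368 and 493 in djc62, and 27.4, 57.8 and 23.2 in Col-0. No single-mutant library of PYL6 overlapped with the other genotypes, and its contrast was -7.57 ± 0.46 SE (adjusted p = 2.48e-09).

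Among cold-response genes, which overlap with those of drought, several were high in the single mutants. Of 14 listed 12 were tested, 2 were called above 0 and 5 below, against 15.8% and 15.4% of all loci. Their median was -0.33. That median was -0.60 without djc31 replicate 3, -0.51 without Col-0 replicate 2 and -1.08 at a filter of at least 50 in 3 libraries. The dehydrin ERD10 had 2150.3, 2129.6 and 2181 in the double mutant, 3943, 3708 and 2889.5 in djc31, 5097, 4750.5 and 4522 in djc62, and 2458, 2342 and 2369.9 in Col-0. KIN2, a cold- and ABA-induced gene, had 1414, 903 and 1378 in the double mutant, 3655, 3401 and 3158 in djc31, 4442, 3445 and 3075 in djc62, and 1419, 1347 and 1849 in Col-0. In both genes all single-mutant libraries exceeded all other libraries, a separation that was not counted over all loci. The contrasts were -1.69 ± 0.15 SE and -2.74 ± 0.24 SE (adjusted p = 3.71e-07 and 2.2e-07). RD29A averaged 437 in the double mutant, 992 in djc31, 1125 in djc62 and 478 in Col-0. ZAT12, a zinc-finger factor of stress responses, had the wild type apart, at 123 in the double mutant, 57.2 in djc31, 29.5 in djc62 and 425 in Col-0.

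Genes induced by darkness and sugar starvation were called mostly below 0. Of 24 listed 22 were tested, 4 were called above 0 and 13 below, against 15.8% and 15.4% of all loci. Their median was -0.97, and 10 were undone. The mean was highest in djc31 at 12 of the 17 called. MCCA, a subunit of the carboxylase that breaks down leucine, had 716, 878 and 825 in the double mutant, 1550.3, 1626 and 1994 in djc31, 1343, 1800.0 and 1472 in djc62, and 703, 649.9 and 508 in Col-0 (contrast -2.40 ± 0.21 SE, adjusted p = 1.76e-07). AKINBETA1, a subunit of the SnRK1 energy-sensing kinase, averaged 1039 in the double mutant, 2177 in djc31, 1327 in djc62 and 913 in Col-0. DIN1 averaged 458 in the double mutant, 1668 in djc31, 539 in djc62 and 338 in Col-0, and of the single mutants only djc31 differed from Col-0 (adjusted p = 1.37e-06, against 0.0599 for djc62). DIN6, a glutamine-dependent asparagine synthetase, had 1100.3, 1173 and 1629 in the double mutant, 4687, 3529.8 and 4125 in djc31, 2825, 3539.8 and 3298 in djc62, and 86.4, 79.5 and 64.9 in Col-0, with the contrast at -7.05 ± 0.22 SE (adjusted p = 1.93e-13). DRM1, named for dormancy, averaged 759 in the double mutant, 2845 in djc31, 1485 in djc62 and 571 in Col-0. All 9 mutant libraries of DIN6 exceeded Col-0, and the double mutant lay between Col-0 and both single mutants.

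Glucosinolates, sulfur-rich defence compounds, are made from methionine (aliphatic) or tryptophan (indolic). All 24 aliphatic genes were tested, and 12 were called above 0 and 1 below, against 15.8% and 15.4% of all loci. Their median was 0.41. MYB29, one of the factors that drive the aliphatic branch, had 2328, 2073 and 1549 in the double mutant, 445, 724 and 745 in djc31, 753, 1001 and 871 in djc62, and 1479.8, 1374 and 1264 in Col-0 (contrast 2.31 ± 0.26 SE, adjusted p = 3.71e-06). Its relative MYB28 changed in the double mutant only, at 3156 in the double mutant, 1177 in djc31, 1586 in djc62 and 1507 in Col-0, and MYB76 was undone from djc31, at 186 in the double mutant, 57 in djc31, 109 in djc62 and 132 in Col-0. FMOGS-OX2, which oxidises the side chain, averaged 407 ± 80.7 in the double mutant, 119 ± 36.2 in djc31, 135 ± 6.18 in djc62 and 251 ± 28.1 in Col-0. Of 19 indolic genes 17 were tested, 5 were called above 0 and 8 below, against the same shares of all loci. Their median was -0.47 (-0.57 to -0.16 over the settings tried). GSTF10 and the myrosinase PEN2 were among those below 0, with PEN2 at 2500.0 in the double mutant, 3098 in djc31, 3822 in djc62 and 2177 in Col-0. The methyltransferase gene IGMT2 had the wild type apart, at 76.4 in the double mutant, 52.6 in djc31, 54.9 in djc62 and 243 in Col-0.

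Undone patterns outside these lists included those of single genes. DTX18, a MATE-family efflux carrier, had 52.1, 31.3 and 42.7 in the double mutant, 417, 406 and 435 in djc31, 806, 643 and 816 in djc62, and 16.3, 45 and 16.2 in Col-0. CYP71B22, a cytochrome P450, averaged 24.1 ± 7.79 in the double mutant, 212 ± 33.8 in djc31, 222 ± 5.51 in djc62 and 20.8 ± 5.69 in Col-0. The contrasts were -8.29 ± 0.43 SE for DTX18 and -6.51 ± 0.39 SE for CYP71B22 (adjusted p = 3.32e-10 and 2.46e-09). KTI1, a trypsin inhibitor, was the reverse, with 48.6, 52.1 and 126 in the double mutant, 14.6, 4.3 and 5.07 in djc31, 16.3, 1.7 and 12.3 in djc62, and 127, 133 and 159 in Col-0. ASG4, a homeodomain-like protein, had 78.1, 99 and 49.4 in the double mutant, 17.3, 2.15 and 22 in djc31, 11.6, 22.9 and 23.1 in djc62, and 113, 101 and 243 in Col-0. Libraries of KTI1 and ASG4 were lower in both single mutants than in the other genotypes without overlap. MSRB7, a methionine sulfoxide reductase, reached 0, 1.49 and 0 in the double mutant, 2.65, 0 and 22 in djc31, 48.9, 5.09 and 259.5 in djc62, and 0, 0 and 0 in Col-0. Its contrast was -7.12 ± 1.81 SE (adjusted p = 0.00662), with djc62 libraries that differed widely from each other.

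Among loci changed only in the double mutant, 337 had the contrast above 0 and 335 below. HA9, a plasma-membrane proton pump, had 158, 137 and 123 in the double mutant, 2.65, 0 and 0 in djc31, 0, 0 and 1.54 in djc62, and 8.13, 1.61 and 1.16 in Col-0. AHP4, a phosphotransmitter of cytokinin signalling, had 172, 171 and 198 in the double mutant, 13.3, 6.45 and 6.76 in djc31, 4.66, 0.848 and 6.93 in djc62, and 7.11, 8.03 and 27.8 in Col-0. NAC044, a transcription factor of the DNA damage response, averaged 197 ± 20.4 in the double mutant, 3.78 ± 4 in djc31, 16.5 ± 8.08 in djc62 and 11.8 ± 9.23 in Col-0. At 658 of the 672 loci of this shape the 3 double-mutant libraries lay outside the range of the other 9. Such a gap therefore adds little to the sort, at these and other genes of the shape. No double-mutant library of HA9, AHP4 and NAC044 overlapped with any of the other 9 libraries, all of which were low. Their contrasts were 7.95 ± 1.16 SE, 5.83 ± 0.84 SE and 5.31 ± 0.96 SE (adjusted p = 6.07e-05, 4.92e-05 and 0.000454). At such low counts their size depends on the pseudocount, with 5.21 to 9.95 for HA9 over the 17 of 20 settings in which it was tested. HA9 passed the filter only through the double mutant, so it was not tested when a double-mutant library was left out.

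ADS4, of the fatty acid desaturase family, averaged 112 in the double mutant, 11.2 in djc31, 15.1 in djc62 and 15.9 in Col-0. Genes of higher level had smaller contrasts in this shape. PORA, a light-dependent protochlorophyllide oxidoreductase of greening seedlings, had 901, 819 and 1191 in the double mutant, 187, 269 and 122 in djc31, 67.6, 98.4 and 129 in djc62, and 196, 115 and 114 in Col-0. All its double-mutant libraries were above those of every other genotype. The contrast was 2.90 ± 0.41 SE (adjusted p = 3.87e-05). PORB, its relative, had another order, with 15573, 15581 and 19107 in the double mutant, 29144, 29249.9 and 24884 in djc31, 13268, 13721 and 13134 in djc62, and 11202, 11555 and 10623 in Col-0, and was highest in djc31. With CAO, at a contrast of 0.53 ± 0.14 SE, they were the genes called among the 14 tested for chlorophyll synthesis. Of these, 2 were above and 1 below 0, against 15.8% and 15.4% of all loci. The list's median was -0.12 (-0.23 to 0.21 over the settings tried).

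GH3.6, which conjugates auxin to amino acids, had 2097, 2304 and 2144 in the double mutant, 879, 1009.7 and 898 in djc31, 1019, 858 and 973 in djc62, and 935, 1035 and 808 in Col-0, and no double-mutant library overlapped with any other. Its contrast was 1.19 ± 0.16 SE (adjusted p = 2.88e-05). The related GH3.5 averaged 797 ± 65.5 in the double mutant, 273 ± 43.3 in djc31, 205 ± 24.9 in djc62 and 275 ± 11.6 in Col-0. Of 20 auxin genes 19 were tested, 6 were called above 0 and 4 below, against 15.8% and 15.4% of all loci. Their median was -0.10 (-0.17 to 0.29 over the settings tried). The count below 0 was 2 without Col-0 replicate 2, djc62 replicate 2 or double-mutant replicate 1. The auxin-responsive repressor IAA14 averaged 898 ± 133 in the double mutant, 384 ± 78 in djc31, 414 ± 66.3 in djc62 and 709.8 ± 53.5 in Col-0 and was undone from both single mutants.

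Cell division genes were called in 1 direction only. Of 23 genes, all tested, 17 were called above 0 and none below, against 15.8% and 15.4% of all loci. Their median was 0.85. Of the 17, 8 changed only in the double mutant and 5 were undone. The 8 were cyclins, the kinase CDKB2;2 and KN, which act from DNA synthesis to cytokinesis, and the 5 were genes of DNA replication. The mean was highest in the double mutant at 14 of the 17. The B-type cyclin CYCB1;4 had 331, 315 and 374 in the double mutant, 200.4, 204 and 173 in djc31, 115, 131 and 127 in djc62, and 150.4, 161 and 140.3 in Col-0 (contrast 1.09 ± 0.22 SE, adjusted p = 0.0014). CYCB1;1 averaged 256 ± 5.56 in the double mutant, 104 ± 34.4 in djc31, 93.1 ± 8.24 in djc62 and 109 ± 35.4 in Col-0, and the cytokinesis syntaxin KN averaged 650.0 in the double mutant, 443 in djc31, 319 in djc62 and 342 in Col-0.

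Replication genes were lower in djc31 and not called in the double mutant against Col-0. MCM6, a subunit of the replicative helicase, had 304, 340.0 and 324 in the double mutant, 171, 150.4 and 210.4 in djc31, 221, 301 and 264 in djc62, and 368, 378 and 326 in Col-0 (contrast 1.33 ± 0.23 SE, adjusted p = 0.000304). MCM2, MCM3 and MCM7 were also undone from djc31, while MCM4 and MCM5 were mixed. TSO2, a small subunit of ribonucleotide reductase, was undone from both single mutants, at 1770.3, 2034 and 2096 in the double mutant, 1508, 851 and 839 in djc31, 1111, 917 and 978 in djc62, and 1907, 1581 and 2321 in Col-0.

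Of the shoot apex markers, STM and KNAT1 were higher in the double mutant than in all other genotypes. STM, a homeobox gene that keeps the shoot meristem, had 365, 290.2 and 312 in the double mutant, 109, 103 and 82.8 in djc31, 134, 80.5 and 106 in djc62, and 98.6, 108 and 117 in Col-0 (contrast 1.75 ± 0.30 SE, adjusted p = 0.00024). KNAT1, a relative of STM in the stem and meristem flanks, had 371, 377 and 274 in the double mutant, 98.2, 98.8 and 92.1 in djc31, 94.4, 86.5 and 144 in djc62, and 143, 131 and 190.1 in Col-0. No double-mutant library of either gene overlapped with another genotype. Of 9 apex and flower markers, 5 were tested, 3 were called above 0 and none below, against 15.8% and 15.4% of all loci. Their median was 1.75, and WUS and CLV3 had next to no reads in any genotype. The summed level of the 9 markers ran between 1348 and 1438 in the double mutant, 807 and 1033 in djc31, 790.2 and 931 in djc62, and 1144 and 1276 in Col-0. SOC1 was the largest part of that sum and went another way than STM and KNAT1. It averaged 702 in the double mutant, 721 in djc31, 640 in djc62 and 907 in Col-0. AG was also highest in Col-0, at 0.496 in the double mutant, 1.69 in djc31, 3.91 in djc62 and 17.2 in Col-0. In whole plants a larger share of apex tissue and more RNA per cell cannot be told apart, and their part in the cell division genes was not tested. The third marker called, FT, the mobile signal of flowering, averaged 8.89 in the double mutant, 0.885 in djc31, 6.28 in djc62 and 13.9 in Col-0 and was thus highest in Col-0.

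Other genes were lower in the double mutant only. GDPD2, a glycerophosphodiester phosphodiesterase, had 153, 138 and 221 in the double mutant, 875, 385 and 797 in djc31, 596, 674 and 294 in djc62, and 428, 459.5 and 369 in Col-0 (contrast -2.18 ± 0.42 SE, adjusted p = 0.000886). TLP-3, a protein related to the defence protein PR5, averaged 50.2 in the double mutant, 194 in djc31, 180.1 in djc62 and 159 in Col-0. CNGC10, a cyclic nucleotide-gated channel, averaged 47.1 ± 0.962 in the double mutant, 132 ± 30.8 in djc31, 124 ± 7.28 in djc62 and 89.6 ± 10.1 in Col-0, and the xylosidase BXL3 averaged 47.6 in the double mutant, 212 in djc31, 134 in djc62 and 132 in Col-0. Single-mutant libraries of GDPD2, TLP-3 and BXL3 varied widely, yet the 3 double-mutant libraries were the lowest of the 12 for each gene. MYB60, a guard cell factor, averaged 220.0 in the double mutant, 382 in djc31, 444 in djc62 and 393 in Col-0. With EPF2 it made up the 2 of 8 stomatal lineage markers called, both below 0, against 15.4% of all loci. EPF2 was highest in djc31 and lowest in Col-0, at 106 in the double mutant, 218 in djc31, 145 in djc62 and 98.5 in Col-0. The median of the 8 markers was -0.13 (-0.34 to -0.022 over the settings tried).

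Copper/zinc superoxide dismutases also fell in the double mutant. CSD1, the cytosolic copper/zinc enzyme, averaged 2474 ± 229.6 in the double mutant, 6358 ± 1409 in djc31, 5059 ± 685 in djc62 and 4971 ± 558 in Col-0 (contrast -1.36 ± 0.21 SE, adjusted p = 8.61e-05). CSD2, its plastid counterpart, had 4609, 4775 and 5663 in the double mutant, 23004, 20390.1 and 17196 in djc31, 16561, 15814 and 15275 in djc62, and 24308, 25076 and 30046 in Col-0, so that all 3 mutants were below Col-0 and the double mutant was the lowest by far. The copper chaperone CCS that loads both averaged 1280.5 in the double mutant, 3442 in djc31, 2471 in djc62 and 4222 in Col-0. The copper transporter COPT2 had the wild type apart, at 115 ± 14.4 in the double mutant, 45.3 ± 9.94 in djc31, 70.5 ± 12 in djc62 and 356 ± 71.3 in Col-0, and the catalase CAT1 was highest in djc31, at 817 in the double mutant, 1280.3 in djc31, 837 in djc62 and 615 in Col-0. Of 24 genes in this list 21 were tested, 3 were called above 0 and 5 below, against 15.8% and 15.4% of all loci. The list's median was -0.14 (-0.28 to 0.017 over the settings tried).

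Genes whose change was turned round numbered 223. HSP70-2, a cytosolic HSP70, had 544, 673 and 650.2 in the double mutant, 154, 137 and 139 in djc31, 227, 134 and 167 in djc62, and 218, 234 and 245 in Col-0, and all its double-mutant libraries were above those of every other genotype. BES1, a factor of brassinosteroid signalling, had 3351, 3478 and 3431 in the double mutant, 2371, 2335 and 2357 in djc31, 2251, 2279.9 and 2124 in djc62, and 2716, 2747 and 2579.8 in Col-0. The BES1 difference, though small, left no overlap between the double mutant, Col-0 and the single mutants, and its contrast was 0.81 ± 0.12 SE (adjusted p = 7.64e-05). Of 15 brassinosteroid genes, all tested, 5 were called above 0 and 4 below, against 15.8% and 15.4% of all loci. Their median was -0.0062 (-0.14 to 0.21 over the settings tried). Without double-mutant replicate 2 or djc62 replicate 1 the count above 0 was 2 and 3. The synthesis enzyme DET2 averaged 254 in the double mutant, 442 in djc31, 302 in djc62 and 231 in Col-0, and CPD averaged 3593 in the double mutant, 5519.8 in djc31, 3480.2 in djc62 and 2909 in Col-0.

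The defence gene PR5 was turned round in the other direction, with 155, 178 and 146 in the double mutant, 366, 689.6 and 284 in djc31, 1281, 641 and 988 in djc62, and 398, 375 and 474 in Col-0, lowest in the double mutant and highest in djc62 (contrast -2.55 ± 0.38 SE, adjusted p = 6.4e-05). Of 24 genes of salicylic acid and pathogen defence 22 were tested, 3 were called above 0 and 9 below. The shares of all loci were 15.8% and 15.4%. The list's median was -0.32. That median was -0.86 without djc31 replicate 1, and it turned to 0.13 at a filter of at least 50 in 3 libraries. ACD6, an ankyrin protein that promotes salicylic acid defence, had 615, 839 and 477 in the double mutant, 676, 1444 and 908 in djc31, 3578, 2564 and 4043 in djc62, and 764, 627 and 849.9 in Col-0, high in djc62 alone. The immune regulator NPR1 was undone from both single mutants, at 471 in the double mutant, 658 in djc31, 681 in djc62 and 481 in Col-0. WRKY40, a defence transcription factor, had the wild type apart, at 83.6 in the double mutant, 46.2 in djc31, 106 in djc62 and 372 in Col-0.

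Hypoxia genes were called in both directions, 4 above and 4 below 0 of 15 tested among 16 listed. The shares over all loci were 15.8% and 15.4%. The list's median was -0.039 (-0.22 to 0.062 over the settings tried). PDC2, a pyruvate decarboxylase of fermentation, averaged 163 ± 19.8 in the double mutant, 431 ± 38.6 in djc31, 381 ± 72.2 in djc62 and 136 ± 16.7 in Col-0, and the factor HRE1 averaged 84.5 ± 16.3 in the double mutant, 244 ± 36.3 in djc31, 142 ± 25.6 in djc62 and 60.9 ± 18.6 in Col-0, both undone from both single mutants. LBD41 averaged 563 in the double mutant, 227 in djc31, 123 in djc62 and 202 in Col-0, highest in the double mutant. ADH1, the classical marker of low oxygen, was not called.

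At the most extreme loci with the wild type apart, Col-0 had next to no reads or nearly all of them. AT3G47250, a protein of unknown function with a DUF247 domain, had 1700.0, 1729 and 1748 in the double mutant, 1309, 1648 and 1831 in djc31, 2033, 2029.7 and 2223 in djc62, and 0, 0 and 0 in Col-0. VICTL, of the TIR-NBS-LRR resistance protein family, had 562, 663 and 626 in the double mutant, 409, 382 and 497 in djc31, 582, 734 and 598 in djc62, and 0, 0 and 0 in Col-0. HSD2, a putative hydroxysteroid dehydrogenase, had 2183, 2071 and 2104 in the double mutant, 4026, 3549 and 3189.6 in djc31, 3413, 3159.9 and 3037 in djc62, and 2.03, 0 and 4.64 in Col-0. For loci at or near 0 in a genotype, the size of the contrast depends on the pseudocount and is no measure of the fold, as with -13.98 to -8.59 for AT3G47250 over the settings tried. PLC8, a phospholipase C, and HR4, a homologue of the RPW8 resistance protein, were also near 0 in Col-0 only, and so was AT1G23960, with contrasts of -9.35, -10.04 and -10.30.

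The reverse was seen at HISN6B, a histidine synthesis enzyme, with 0, 0.744 and 1.67 in the double mutant, 2.65, 0 and 3.38 in djc31, 2.33, 3.39 and 6.93 in djc62, and 528, 162 and 174 in Col-0, and at AT1G27570, with 0, 0 and 0.837 in the double mutant, 0, 0 and 0 in djc31, 0, 0 and 0 in djc62, and 178, 143 and 97.4 in Col-0. HISN6B and AT1G27570 passed the filter only through Col-0, and each had a test in 17 of the 20 settings. Transposable element genes made up 3.13% of the loci with the wild type apart and the mutants alike (27 of 864), against 0.771% of all tested loci. In all, the 3 double-mutant libraries lay outside the range of the other 9 at 3008 tested loci (15.1%). The 3 Col-0 libraries lay outside the range of the 9 mutant libraries at 2959 (14.8%). Within the matching shapes these were 658 of 672 and 1437 of 1492 loci, as the sort uses the same values.

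These loci were not spread evenly along the chromosomes. In 196 groups of 100 tested loci, taken in the order of their identifiers, a median of 7 had the wild type apart, and 15 groups held 15 or more, 6 of them on chromosome 3 and 5 on chromosome 5. The group from AT3G46490 to AT3G47840 held 27, among them HSD2, PLC8, AT3G47250, DIN6 and COPT2. Loci changed only in the double mutant ran from 0 to 9 per group, and undone loci from 3 to 20. Groups were laid out and the highest chosen with the values known, and no test was made. The labels do not say whether the Col-0 plants came from the same seed stock as the mutants' parent, so at all loci with the wild type apart a difference of stock and an effect shared by the mutations cannot be told apart, and this holds for their interaction contrast too.

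**Figure D4:**
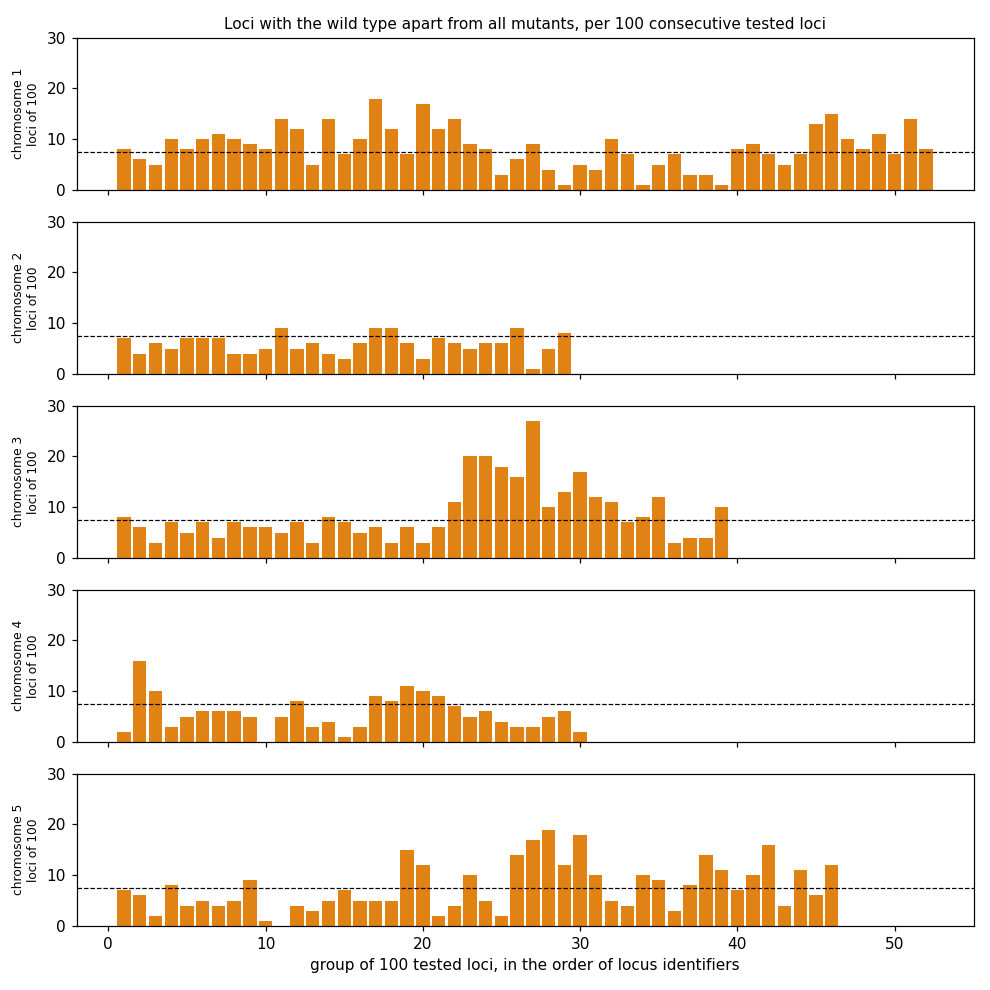
Bars give the number of loci with the wild type apart among each 100 consecutive tested loci, in the order of locus identifiers on chromosomes 1 to 5, and the dashed line is the mean over 196 groups. Counts run from 0 to 27, with the highest bar on chromosome 3.

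More evenly expressed genes also had this shape. ESE3, an ethylene response factor, had 702, 904 and 708 in the double mutant, 114, 133 and 177 in djc31, 142, 122 and 114 in djc62, and 1255, 1303 and 1159 in Col-0, with a contrast of 5.74 ± 0.24 SE (adjusted p = 1.09e-11). XTH31, a cell wall enzyme, averaged 744 ± 98.6 in the double mutant, 136 ± 52 in djc31, 234 ± 17.3 in djc62 and 1973 ± 671 in Col-0, and ORA47, a factor of the jasmonate response, averaged 85.8 ± 28.1 in the double mutant, 46 ± 21 in djc31, 24.1 ± 8.69 in djc62 and 497 ± 297 in Col-0. In ESE3 and XTH31 all single-mutant libraries were far below the double mutant, and the double mutant below Col-0. On the log2 scale the difference of XTH31 from Col-0 was -1.35 ± 0.25 SE in the double mutant, -3.87 ± 0.25 SE in djc31 and -3.01 ± 0.25 SE in djc62.

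Jasmonate, a hormone of wounding and defence, had synthesis genes that stood highest in djc62. Of 31 listed 30 were tested, 3 were called above 0 and 14 below, against 15.8% and 15.4% of all loci. Their median was -0.67, and 12 of the 17 called had the wild type apart. The mean was highest in djc62 at 14 of the 17. AOC2, an allene oxide cyclase, had 2949, 2643 and 2638 in the double mutant, 4831, 4982 and 3542 in djc31, 7276, 6330.0 and 5855 in djc62, and 1205, 1011 and 1280.0 in Col-0 (contrast -3.16 ± 0.19 SE, adjusted p = 2.01e-09). AOC1 averaged 3062 in the double mutant, 3746 in djc31, 6847 in djc62 and 893 in Col-0. The reductase OPR3 averaged 3272 in the double mutant, 3465 in djc31, 8308 in djc62 and 1476 in Col-0, and JAR1, which makes the active jasmonoyl-isoleucine, averaged 1124 in the double mutant, 1660.5 in djc31, 2964 in djc62 and 774 in Col-0. For AOC2, OPR3 and JAR1 the double mutant was closer to Col-0 than either single mutant. The repressor JAZ7 had the opposite sign, at 134 ± 74.7 in the double mutant, 48.9 ± 19 in djc31, 51.6 ± 37.9 in djc62 and 534 ± 111 in Col-0, and most JAZ genes were not called. Without djc62 replicate 2, 5 members were called above 0.

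Circadian clock genes differed mainly between Col-0 and the mutants. Of 32 listed 29 were tested, 9 were called above 0 and 7 below, against 15.8% and 15.4% of all loci. The list's median was 0.19 (0.015 to 0.24 over the settings tried), and 10 of the 16 called had the wild type apart. The morning genes LHY and CCA1 were highest in Col-0, with LHY at 1705 ± 234 in the double mutant, 1178 ± 84.7 in djc31, 2399 ± 261 in djc62 and 3984 ± 298 in Col-0. PRR5, expressed later in the day, had 22.6, 13.4 and 41 in the double mutant, 73, 129 and 136 in djc31, 74.6, 100.0 and 115 in djc62, and 6.1, 11.2 and 2.32 in Col-0, lowest in Col-0. GRP7, a clock-regulated RNA-binding protein, averaged 1435 ± 388 in the double mutant, 6669 ± 770.4 in djc31, 2165 ± 356 in djc62 and 934 ± 19.9 in Col-0, and COL2 averaged 1003 in the double mutant, 914 in djc31, 841 in djc62 and 2260.0 in Col-0. Neither the labels nor the table give the hour of harvest. A difference in time of day between genotypes and an effect of the mutations on the clock cannot be told apart, and the part of the clock genes in the other loci with the wild type apart was not tested.

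Several heat-inducible chaperones and heat shock factors were lower in the single mutants. Of 30 listed 23 were tested, 11 were called above 0 and 1 below, against 15.8% and 15.4% of all loci. Their median was 1.27 (0.61 to 1.48 over the settings tried), and 7 were undone. HSP70 (AT3G12580), a heat-induced cytosolic HSP70, had 154, 229 and 139 in the double mutant, 59.7, 43 and 41.4 in djc31, 65.2, 61 and 56.2 in djc62, and 227, 198 and 257 in Col-0 (contrast 3.70 ± 0.33 SE, adjusted p = 2.75e-07). Its 6 single-mutant libraries were below every other library. MBF1C, a coactivator of the heat response, averaged 97.5 in the double mutant, 60.2 in djc31, 52.6 in djc62 and 98.3 in Col-0, and HSP90.1 was turned round, at 135 in the double mutant, 44.6 in djc31, 59.1 in djc62 and 78.1 in Col-0. HSFA3 averaged 60.6 in the double mutant, 39.9 in djc31, 30.6 in djc62 and 84.2 in Col-0. HSFB2A had the wild type apart, at 142 ± 7.07 in the double mutant, 99.3 ± 15.2 in djc31, 117 ± 13.5 in djc62 and 539 ± 178 in Col-0. The factors that start the heat response, HSFA1A, HSFA1B, HSFA1D and HSFA1E, were not called.

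The constitutive HSP70 and HSP90 proteins and their co-chaperones, the machinery in which J-domain proteins work, were called about as often as all loci (15.8% above and 15.4% below 0). All 25 were tested, 4 were called above 0 and 5 below, with a median of -0.26 (-0.31 to -0.14 over the settings tried). HSP90.2 had 3652, 4248 and 4118 in the double mutant, 3764, 3195 and 2676 in djc31, 3708, 4088 and 3731 in djc62, and 1257, 1511 and 1796 in Col-0, lowest in Col-0, whereas HSP90.3 averaged 3137 in the double mutant, 2074 in djc31, 2510.0 in djc62 and 3001 in Col-0. AT3G09440, of the HSP70 family, averaged 1916 in the double mutant, 1173 in djc31, 1621 in djc62 and 3602 in Col-0. SGT1B, an HSP90 co-chaperone of immune receptors, was undone from both single mutants, at 1706 ± 199 in the double mutant, 2489 ± 484 in djc31, 2381 ± 330.0 in djc62 and 1706 ± 109 in Col-0. HSC70-1, the co-chaperones HOP1, HOP2 and HOP3, and the J-domain proteins ATJ2 and ATJ3 were not called. Of 12 genes of protein folding in the endoplasmic reticulum, all tested, 1 was called, BIP2 at 2938 ± 280.5 in the double mutant, 2087 ± 351 in djc31, 2699 ± 216 in djc62 and 3395 ± 125 in Col-0 (contrast 0.84 ± 0.17 SE, adjusted p = 0.00114), and the list's median was 0.056 (-0.047 to 0.15 over the settings tried).

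Photosynthesis genes that were called stood highest in djc31. Of 20 antenna genes 19 were tested, none was called above 0 and 9 below, against 15.8% and 15.4% of all loci. Their median was -0.61, and all 9 called were highest in djc31 and lowest in the double mutant. LHCB1.4, an antenna protein of photosystem II, had 84243, 75384 and 98779.5 in the double mutant, 257244, 318473 and 207192 in djc31, 103964, 97646 and 77476 in djc62, and 107293, 121267 and 115197 in Col-0 (contrast -1.28 ± 0.26 SE, adjusted p = 0.00117). All 3 djc31 libraries were above all others. The contrasts of LHCB1.1 and LHCB1.2 were -1.14 and -1.18. Of 33 photosystem and Calvin cycle genes, all tested, 17 were called below 0 and none above, with a median of -0.51, and 15 of these were highest in djc31 and all 17 lowest in the double mutant. PSAO, a subunit of photosystem I, averaged 58442 ± 6353 in the double mutant, 126414 ± 19570.1 in djc31, 76574 ± 15109 in djc62 and 87126 ± 11118 in Col-0. The contrasts of PSAE2 and PSBQ2 were -0.70 and -0.74. The calls depended on scaling, filter and single libraries. After quantile normalisation 2 antenna genes were called above and 2 below 0 with a median of 0.00082, and 2 of the 33 other genes in each direction, and with no filter on low values 1 and 2 genes of these lists were called below 0. Leaving out 1 library gave from 4 (without Col-0 replicate 2, djc62 replicate 1 or double-mutant replicate 2) to 17 (without djc31 replicate 3) antenna genes below 0, and from 4 to 25 of the others, lowest without Col-0 replicate 1 or djc62 replicate 1. The labels do not give how reads of near-identical LHCB1 copies were shared out.

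**Figure D5:**
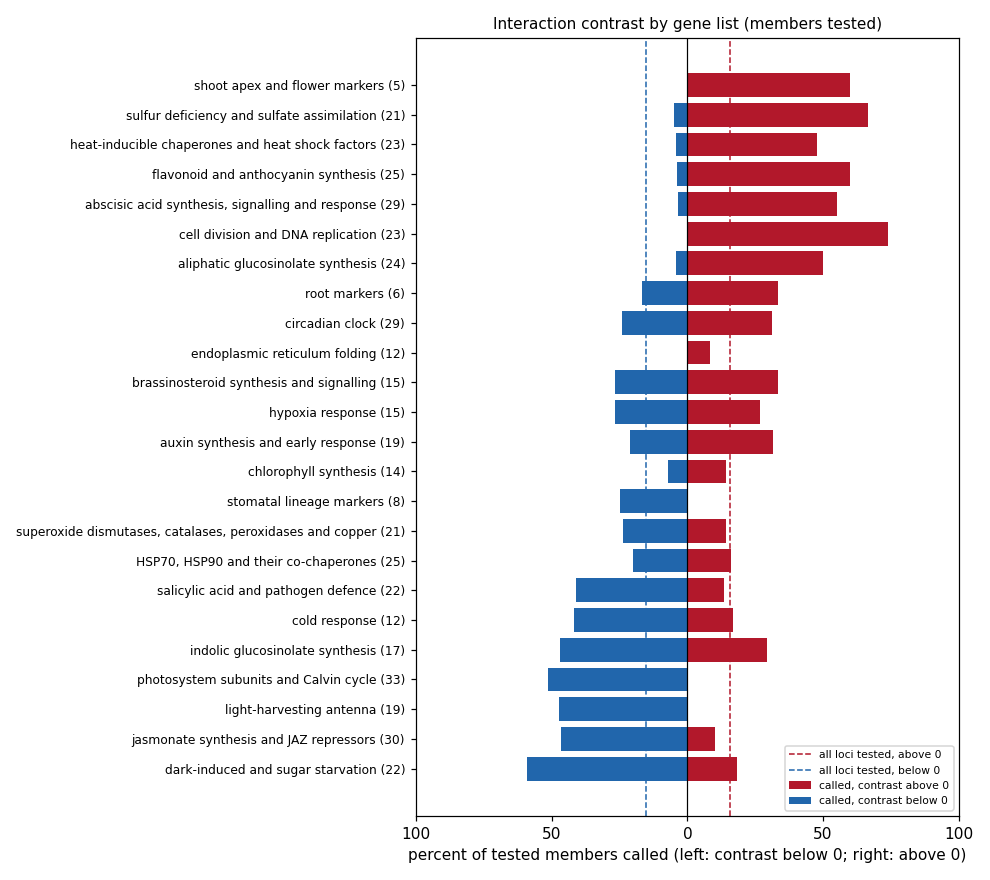
Bars give the percent of the tested members of each gene list that were called with the interaction contrast above 0 (right) or below 0 (left), ordered by the list's median contrast, and dashed lines give the same over all 19975 loci (15.8% and 15.4%). Cell division, with 17 of 23 members above 0, and dark-induced genes, with 13 of 22 below 0, reach farthest.

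Markers of other tissues were low with a few exceptions. The 4 seed storage genes did not pass the filter, and their summed level was at most 4.62 in any library. Of 12 root markers 6 were tested, 2 were called above 0 and 1 below, against 15.8% and 15.4% of all loci. Their median was 0.28. Without double-mutant replicate 2 none was called above 0 by limma, and 1 was called without djc31 replicate 1 or 3, any 1 djc62 library or double-mutant replicate 3. CASP1, COBL9, EXPA7, PRP3, RHD6 and IRT1 averaged at most 6.3 in any genotype. PYK10, a root beta-glucosidase, had 4293 ± 333 in the double mutant, 1911 ± 290.2 in djc31, 2423 ± 189 in djc62 and 1422 ± 154 in Col-0, and its contrast was not called (0.40 ± 0.17 SE, adjusted p = 0.084). With PYK10 the summed root markers ran between 5136 and 5769 in the double mutant, 2469 and 3259 in djc31, 3465 and 3778 in djc62, and 2622 and 2812 in Col-0. The part of root RNA in the loci changed only in the double mutant was not tested. SCR and SHR are also expressed in leaves, with SCR at 808 in the double mutant, 530.0 in djc31, 900.2 in djc62 and 912 in Col-0. NRT2.1, a nitrate transporter, averaged 8.35 in the double mutant, 32.3 in djc31, 18.5 in djc62 and 1.07 in Col-0.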

How the data were processed

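RNA-seq of whole plants gave 12 libraries, 3 for each of 4 genotypes. Per the submitters' processing notes, Trimmomatic, FastQC and featureCounts were used with TAIR10, with versions, aligner and strand setting not given in the sources used here. Deposited values are a signal, the authors' gene count divided by a size factor for each library, per the file headers, which name DESeq2. Dividing out 1 step per library gave whole reads for 100% of values (tolerance 0.01).

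From these values, log2(value + 1) was fitted with limma 3.58.1 (R 4.3.3, trend, 4 genotype means, 8 residual degrees of freedom) for loci of at least 10 in at least 3 libraries, which removed 16942 loci. Because the values are scaled, edgeR 4.0.16 and DESeq2 1.42.0 on the recovered reads served as alternatives, beside other pseudocounts, filters, scalings and libraries left out. The fit was tested on simulated counts, with the outcome not given here. The sort by shape was checked only on set patterns without noise, so its errors under noise were not measured.

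Members and gene lists were chosen with earlier results of these data known. Named genes are DJC31 and DJC62, the 4 highest and 4 lowest contrasts of 3 shapes among called loci with a symbol and a mean of at least 100, the 3 highest and lowest of all called loci, and up to 3 members of each list by adjusted p. Other genes were named after their values were seen. Sequences and genome coordinates were not used here.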

Additional observations from a re-analysis of the deposited data

Results flagged for a closer look

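Each result here compares the effect of one mutation between 2 backgrounds and is given as a value without an explanation. The effect of either mutation differed between the presence and the absence of the other at 6236 of 19975 tested loci, by the interaction term of the limma fit at an adjusted p under 0.05. At 864 of these, the wild type stood apart and the mutants were alike, so that the term there measures Col-0 against the mutants. At another 628 the wild type stood apart and the mutants differed. At all 1492, a difference of seed stock in Col-0 and an effect shared by the mutations cannot be told apart. For loss of DJC31, the effect in the djc62 background and the effect in the Col-0 background were both called and had opposite signs at 1202 loci. For loss of DJC62, the effects in the djc31 and the Col-0 backgrounds were both called and opposite at 1344 loci. The opposite signs were counted from pairwise calls and not tested as such, beyond the interaction term.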

How the results depend on the processing

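The number of loci called in the interaction contrast was between 5774 and 6847 under other pseudocounts, filters, quantile normalisation, edgeR (6264) and DESeq2 (6847), against 6236, and between 4826 (without double-mutant replicate 2) and 6729 (without djc31 replicate 3) when 1 library was left out. The share above 0 moved by less than 10 percentage points throughout. Shape counts moved more. At an adjusted p under 0.01 in every comparison, 1183 loci were undone, 279 only in the double mutant, 844 had the wild type apart and 61 were turned round. With each locus put in the grouping of genotype means with the lowest BIC, 1289 were undone, 312 only in the double mutant and 371 had the wild type apart; the cause was not tested. Leaving out 1 library gave 1546 to 2378 undone, 341 to 725 only in the double mutant, 1120 to 1641 wild type apart, 119 to 300 turned round and 1378 to 2086 mixed. List members called numbered 254, and 210 to 267 with 1 library left out. List medians changed sign in some setting for the antenna, chlorophyll, salicylic acid, endoplasmic reticulum, superoxide dismutase, hypoxia, auxin and brassinosteroid lists. Not all of these medians were close to 0. That of the antenna list was -0.61 (-0.76 to 0.00082 over the settings tried), and that of the salicylic acid list -0.32 (-0.86 to 0.13).

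Replicate numbers did not pair the libraries: deviations of same-numbered libraries of different genotypes correlated at -0.15 to 0.11. With the replicate block 5867 loci were called. Of 97 named genes under 20 settings, 1903 values stayed on the same side of the threshold, 20 lost the call, 2 gained it (DJC62) and none reversed. HA9, AT1G27570 and HISN6B had a test in only 17 of these settings, MSRB7 in 16, and FT and NRT2.1 in 19. SHR lost its call in 10 settings. The others that lost it in some setting were LHCB1.1, LHCB1.2, PSAO, PSAE2, PSBQ2, FT, HISN6B and SCR. For loci at or near 0 reads in a genotype, depth limits the size of a contrast.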

Other observations

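Cell wall and growth genes gave further patterns, among word families in the gene descriptions that were chosen after the values were seen. Expansins, which loosen cell walls, were called above 0 in the interaction contrast at 13 of 19 tested genes and below at 2, with a median of 1.06, against 15.8% and 15.4% of all loci. EXPB1 averaged 294 ± 47.4 in the double mutant, 68.6 ± 17.8 in djc31, 76.8 ± 12.7 in djc62 and 452 ± 88.2 in Col-0, and EXPB3, which was turned round, averaged 1456 ± 255 in the double mutant, 340.4 ± 35.8 in djc31, 506 ± 42.1 in djc62 and 953 ± 84.1 in Col-0. EXPA14 and EXPA9 had the opposite sign, with contrasts of -3.05 ± 0.39 SE and -2.01 ± 0.26 SE. EXT4, a cell wall extensin, changed only in the double mutant, at 2973 ± 450.2 in the double mutant, 554 ± 146 in djc31, 536 ± 61.6 in djc62 and 650.1 ± 125 in Col-0 (contrast 2.71 ± 0.25 SE).

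Kinesins, motors of the spindle and the dividing cell, were called above 0 at 24 of 61 tested genes and below at 2. The shares of all loci were 15.8% and 15.4%. Of the kinesins, 12 changed only in the double mutant, and the median was 0.64. Tubulins were called below 0 at 9 of 36, against 15.4% of all loci, and above at none by limma. TUA3 averaged 5398 ± 771 in the double mutant, 10356 ± 1470.4 in djc31, 7446 ± 722 in djc62 and 5158 ± 469 in Col-0. The count of tubulins below 0 was 5 without Col-0 replicate 1 or 2, without double-mutant replicate 2 or 3, and with the replicate block. The words also take in chaperones and plastid relatives of tubulin.

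Ribosomal proteins were called below 0 at 143 of 409 and above at 11, against 15.4% and 15.8% of all loci. Their median was -0.44. The count below 0 was 45 without Col-0 replicate 1, where 2498 of all 19851 loci tested were called below 0. It was 52 without double-mutant replicate 1, 59 without djc62 replicate 1, and 59 after quantile normalisation. Without Col-0 replicate 3 it was 202, and without djc31 replicate 3 it was 204. The words do not separate ribosomal proteins of the cytosol from those of plastids and mitochondria. Glutaredoxins, small redox enzymes, were called above 0 at 6 of 43 and below at 18, against 15.8% and 15.4% of all loci. Their median was -0.53, with 15 to 21 below 0 over the settings tried.

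Among single genes also chosen after their values were seen, GMI1, induced by gamma irradiation, was turned round, at 552 ± 33.8 in the double mutant, 66.7 ± 18.5 in djc31, 51.3 ± 20 in djc62 and 131 ± 19.6 in Col-0 (contrast 4.47 ± 0.38 SE). NIP5;1, a boric acid channel, averaged 459 ± 36.3 in the double mutant, 70.6 ± 36.5 in djc31, 123 ± 19.4 in djc62 and 175 ± 36.2 in Col-0. SAG21, a senescence-associated gene, had the opposite sign, at 535 ± 226 in the double mutant, 2486 ± 458 in djc31, 2377 ± 310.0 in djc62 and 800.4 ± 165 in Col-0 (contrast -3.86 ± 0.31 SE). FER3, a ferritin that stores iron, fell only in the double mutant, at 1085 ± 61.3 in the double mutant, 2428 ± 288 in djc31, 2140.4 ± 117 in djc62 and 2059 ± 313 in Col-0 (contrast -1.22 ± 0.17 SE).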
